A study of Mus musculus with 23 samples.

Results

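Calcium handling by the sarcoplasmic reticulum (SR), the calcium store of the muscle fibre, was described in mouse tibialis anterior through 10 genes. They are Cacna1s, Ryr1, Atp2a1, Atp2a2, Sln, Pln, Casq1, Casq2, Pvalb and Slc8a1. They were taken by their GENCODE symbol from a table of 14500 genes. All 10 were in the table and all 10 passed the filter on low values, an FPKM (sequenced fragments scaled to exon length and library size) of at least 1 in at least 2 libraries, which 12820 genes passed.

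A nerve impulse reaches the fibre interior along the transverse tubules, where a voltage sensor opens the release channel of the SR and calcium flows onto the filaments. Calcium pumps of the SERCA family then return it to the store, where calsequestrins bind it, and in fast fibres parvalbumin takes it up in the cytosol first. Fast and slow fibres use different members of these families, and the slow forms are in part those of the heart.

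Total RNA of whole tibialis anterior, a leg muscle made mostly of fast fibres, was sequenced in 23 libraries from female C57BL/6 mice fed ad libitum. Muscles were taken at zeitgeber time (ZT) 0, which is lights on, or ZT12, lights off. The mice were wild-type or carried Bmal1(stopFL/stopFL), Syt10-Cre(-/tg) and Hsa-Cre(-/tg), here called RE-RE. In RE-RE mice a stop in the clock gene Bmal1 is removed by Hsa-Cre, which acts in skeletal muscle, and by Syt10-Cre, which acts in some neurons, among them those of the brain's central clock (suprachiasmatic nucleus), so other cells keep the stop. Treated muscles received repeated injections of 6-hydroxydopamine (6-OHDA), a poison of sympathetic nerve terminals, at 50 mg/kg into the muscle, under isoflurane, and were collected after a recovery period. Sham muscles were not injected, so injection and toxin cannot be told apart. For wild-type sham muscle 4 libraries were made at ZT0 (13 to 18 weeks of age) and 3 at ZT12 (12 to 18 weeks). Wild-type 6-OHDA muscle has 4 at ZT0 (15 to 16 weeks) and 4 at ZT12 (12 to 15 weeks). RE-RE sham muscle has 2 at ZT0 (10 to 11 weeks) and 2 at ZT12 (11 weeks), and RE-RE 6-OHDA muscle has 2 at ZT0 (12 to 16 weeks) and 2 at ZT12 (15 to 18 weeks). The labels do not say whether libraries of a group came from separate mice, so p-values measure the spread between these samples.

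Reads recovered from the table came to 21.1 to 36.1 M per library. Marker genes of skeletal muscle summed to 28580 to 57349 FPKM per library. Of 4 heart markers, 2 were in the table and they summed to 0.215 to 2.06 FPKM. In all, 3 RE-RE libraries stood apart from the other library of their group. Each group has 2 libraries, so the pair alone cannot tell which of them is unusual. RE-RE sham libraries 1 (ZT0) and 3 (ZT12) held 27.6% and 23.1% mitochondrial reads, against 15.3% to 21.2% in wild-type sham muscle, and low Atp2a1. RE-RE 6-OHDA library 2 (ZT0) had marker sums near those of sham muscle for macrophages (12.9 FPKM) and regenerating fibres (23.02 FPKM). Its slow-fibre sum, 198 FPKM, lay above the 81.9 to 168 FPKM of RE-RE sham muscle. Results in RE-RE muscle are therefore given with and without these 3 libraries, which were singled out in part by a member's level (Atp2a1) and by the treatment's markers. The residual SD was larger in RE-RE than in wild-type groups for 91.7% of genes (medians 0.451 and 0.216 on the log2 scale), so the pooled errors are too small for RE-RE comparisons.

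In wild-type sham muscle the members' levels differed widely. By FPKM, which is per length, the order was Pvalb with 8169 ± 1621 FPKM (SD, n = 7), Atp2a1 with 6425 ± 1144, Casq1 with 1579 ± 224, Ryr1 with 155 ± 28.4 and Cacna1s with 96.1 ± 11.6. Then came Sln with 33.6 ± 14.9 FPKM, Casq2 with 22.3 ± 3.22, Atp2a2 with 10.6 ± 3.11, Pln with 1.61 ± 0.435 and Slc8a1 with 1.07 ± 0.322. The ranges of Pvalb and Atp2a1 overlapped, as did those of Sln, Casq2 and Atp2a2 in part, and those of Pln and Slc8a1. The fast-fibre pump, calsequestrin and cytosolic buffer thus stood far above the slow forms of pump and calsequestrin in this fast muscle.

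6-OHDA treatment of wild-type muscle was compared with sham over both times of day. The slow or cardiac pump Atp2a2, the pump regulator Sln and the slow or cardiac calsequestrin Casq2 rose, and the buffer Pvalb fell. In each of these 4 genes all 8 treated libraries lay outside the range of all 7 sham libraries. The share of all tested genes separated in this way was not counted, so the separation is a description. Atp2a2 was 2.81-fold higher, Sln 5.87-fold higher, Casq2 2.14-fold higher and Pvalb 2.16-fold lower. The voltage sensor Cacna1s, the release channel Ryr1, the fast pump Atp2a1, the main calsequestrin Casq1, Pln and Slc8a1 did not pass the test. Of all tested genes 34.8% passed in this comparison, so 4 of 10 members is near the background. A fit on the wild-type libraries alone, without the wider spread of RE-RE muscle, passed 8 members (and 6640 of 12820 genes), adding Cacna1s, Ryr1, Atp2a1 and Casq1, all lower. By direction, in the fit on all libraries, 3 of 10 rose against 18.8% of all genes, and 1 of 10 fell against 15.9%. In bulk muscle, fewer cells of a type and less RNA per cell cannot be told apart.

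**Figure D1:**
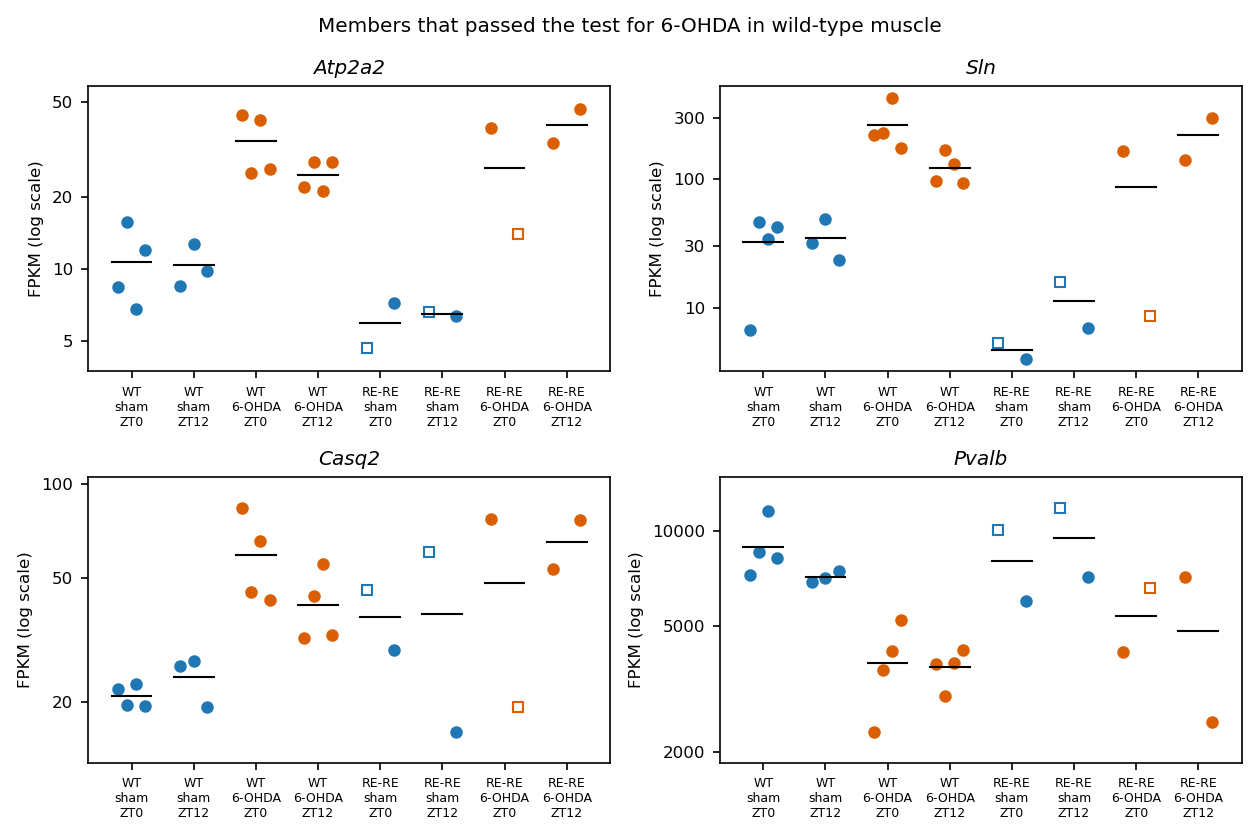
FPKM (log scale) of Atp2a2, Sln, Casq2 and Pvalb in each of 23 libraries, by genotype, treatment and time (blue for sham, orange for 6-OHDA, bars at group means, open squares for the 3 RE-RE libraries that stood apart). In wild-type muscle the 8 treated libraries lie above all 7 sham libraries for Atp2a2, Sln and Casq2 and below them for Pvalb.

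Cacna1s encodes the voltage-sensing subunit of the dihydropyridine receptor in the transverse tubule (ENSMUSG00000026407, GRCm38 chromosome 1, 136052750 to 136119822). It ranged from 81.3 to 112 FPKM in wild-type sham muscle, with a median of 92.2, and from 64.9 to 89.9 in 6-OHDA muscle, with a median of 80.9. The ranges overlapped, and the log2 difference of -0.28 ± 0.17 (SE) did not pass (limma adjusted p = 0.218). Ryr1, the calcium release channel of the SR (ENSMUSG00000030592, chromosome 7, 29003344 to 29125179), ranged from 118 to 200 FPKM in sham muscle, with a median of 147, and from 95.1 to 150 in treated muscle, with a median of 124. It also overlapped, with a log2 difference of -0.35 ± 0.26 (limma adjusted p = 0.311). Both genes had 4 of 8 treated libraries below every sham library, and both were called lower in the fit on wild-type libraries alone.

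Atp2a1 encodes SERCA1, the pump of fast fibres (ENSMUSG00000030730, chromosome 7, 126445858 to 126463108). It ranged from 5177 to 8131 FPKM in wild-type sham muscle (median 5869) and from 3702 to 6126 in treated muscle (median 4505). In the fit on all libraries the 95% interval of its log2 difference, -1.07 to 0.19, reached from a fall to a small rise. That interval holds the spread of RE-RE muscle (SD within groups 1.05, against 0.25 in wild-type muscle). The fit on wild-type libraries alone called it lower, as it did 27.7% of all genes. Of its 3477 exon bases, 763 overlap Rabep2 on the other strand, and whether counting used strand is not given in the sources used here.

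Atp2a2 encodes SERCA2, the pump of slow fibres and heart, with a form found in most cells (ENSMUSG00000029467, chromosome 5, 122453513 to 122502225). It ranged from 6.77 to 15.8 FPKM in wild-type sham muscle, with a median of 9.80. In treated muscle it ranged from 21.3 to 44.1, with a median of 27.2, and the lowest treated library lay above the highest sham library. The log2 difference was 1.49 ± 0.22 (limma adjusted p = 0.00112), the 24th smallest p of 12820 genes. At 29.6 ± 8.64 FPKM (SD, n = 8) it was still far below Atp2a1.

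Within the SERCA pair, Atp2a2 made up 0.169% ± 0.0570 (SD, n = 7) of the summed FPKM in wild-type sham muscle and 0.657% ± 0.289 (SD, n = 8) in treated muscle. The ranges, 0.112% to 0.245% and 0.393% to 1.18%, did not overlap. A share of this kind does not depend on how libraries are scaled to each other. RE-RE sham libraries ran from 0.0762% to 0.309%, and RE-RE 6-OHDA libraries from 0.181% to 1.15%, with library 2 at the low end.

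**Figure D2:**
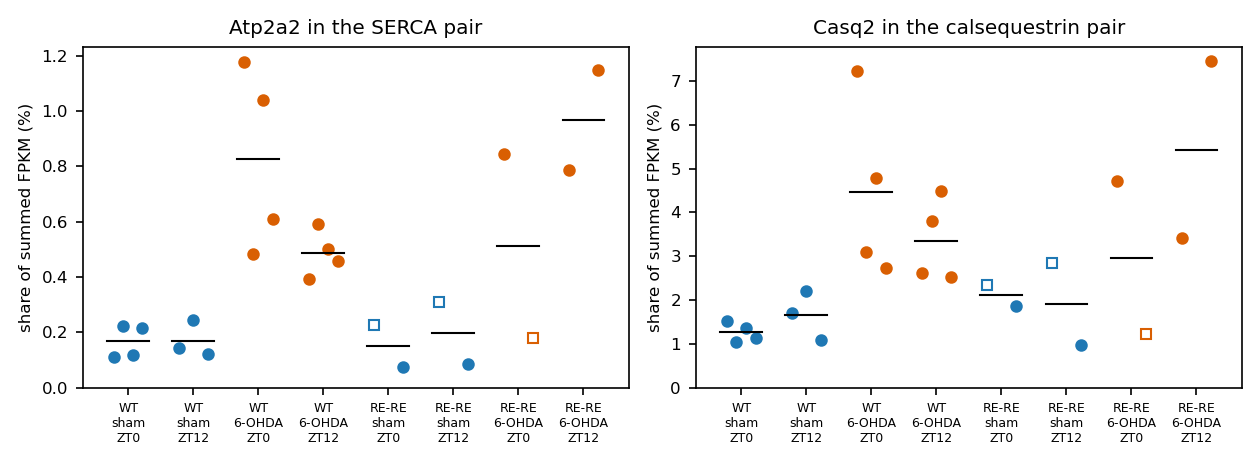
Share of Atp2a2 in the summed FPKM of Atp2a1 and Atp2a2 (left) and of Casq2 in that of Casq1 and Casq2 (right), in percent, for each library (blue for sham, orange for 6-OHDA, bars at group means, open squares for the 3 RE-RE libraries that stood apart). All 8 wild-type 6-OHDA libraries exceed all 7 wild-type sham libraries in both shares.

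Sln encodes sarcolipin, a small membrane protein that binds SERCA pumps and lowers calcium uptake (ENSMUSG00000042045, chromosome 9, 53850164 to 53854560). The 7 wild-type sham libraries ranged from 6.67 to 49.5 FPKM, with a median of 34.2, and the lowest value, in library 1 of ZT0, lay far from the others. The 8 treated libraries ranged from 94.7 to 430 FPKM, with a median of 174. They did not overlap with sham, and the log2 difference was 2.55 ± 0.51 (limma adjusted p = 0.00215). Pln encodes phospholamban, the regulator of SERCA2 in heart and slow fibres (ENSMUSG00000038583, chromosome 10, 53337667 to 53345987). It stayed near the filter's minimum, at 1.07 to 2.17 FPKM in sham (median 1.76) and 0.819 to 2.40 in treated muscle (median 1.46). Its log2 difference of -0.18 ± 0.21 did not pass (limma adjusted p = 0.547), and 1785 of its 2759 exon bases overlap other genes. Of these 2 regulators, Sln passed.

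Casq1 encodes the calsequestrin of fast fibres, which binds calcium inside the SR (ENSMUSG00000007122, chromosome 1, 172209894 to 172219868). It ranged from 1200 to 1866 FPKM in wild-type sham muscle (median 1639) and from 1075 to 1514 in treated muscle (median 1231), and the ranges overlapped. The log2 difference was -0.31 ± 0.14 (limma adjusted p = 0.078), and it passed in the fit on wild-type libraries alone. Casq2, the calsequestrin of slow fibres and heart (ENSMUSG00000027861, chromosome 3, 102086415 to 102146514), ranged from 19.2 to 27.1 FPKM in sham muscle (median 22.1) and from 32.1 to 83.8 in treated muscle (median 44.3), with no overlap. Its log2 difference was 1.10 ± 0.29 (limma adjusted p = 0.00812). The share of Casq2 in the pair was 1.44% ± 0.418 (SD, n = 7) in sham and 3.91% ± 1.59 (SD, n = 8) in treated muscle.

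Pvalb encodes parvalbumin, a cytosolic calcium buffer of fast fibres that speeds relaxation (ENSMUSG00000005716, chromosome 15, 78191114 to 78206400). It ranged from 6910 to 11580 FPKM in wild-type sham muscle, with a median of 7468, and from 2312 to 5217 in treated muscle, with a median of 3815. The highest treated library lay below the lowest sham library, and the log2 difference was -1.11 ± 0.25 (limma adjusted p = 0.00346). After quantile normalization, which forces all libraries to 1 distribution, the log2 difference was -0.32 and did not pass (limma adjusted p = 0.08). Slc8a1 encodes the sodium-calcium exchanger of the surface membrane (ENSMUSG00000054640, chromosome 17, 81373105 to 81738377). It ranged from 0.645 to 1.68 FPKM in sham and from 0.869 to 1.82 in treated muscle, with a log2 difference of 0.41 ± 0.18 (limma adjusted p = 0.0897).

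The promoters of the calsequestrin pair and of Pvalb, the calcium buffers among the members, are printed. In wild-type muscle Casq2 rose and Pvalb fell. Casq1 (log2 difference -0.31) did not pass in the fit on all libraries, but was called lower in the fit on wild-type libraries alone. Each run is the 250 bases before the start site, on the gene's strand, from RefSeq on GRCm38.p6. Capitals mark an E-box (CANNTG, the site type bound by myogenic factors) or a MEF2 motif, the site type of the myocyte enhancer factors. Both motifs were searched on both strands, and no 2 matches in the printed windows overlap. The Casq1 window is chr1:172219896-172220145, minus strand, that of Casq2 chr3:102086165-102086414, plus strand, and that of Pvalb chr15:78206401-78206650, minus strand.
Casq1: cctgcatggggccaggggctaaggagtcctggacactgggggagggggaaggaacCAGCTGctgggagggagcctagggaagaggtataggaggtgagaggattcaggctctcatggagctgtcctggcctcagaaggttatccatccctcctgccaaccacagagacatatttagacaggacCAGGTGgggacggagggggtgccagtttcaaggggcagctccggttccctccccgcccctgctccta
Casq2: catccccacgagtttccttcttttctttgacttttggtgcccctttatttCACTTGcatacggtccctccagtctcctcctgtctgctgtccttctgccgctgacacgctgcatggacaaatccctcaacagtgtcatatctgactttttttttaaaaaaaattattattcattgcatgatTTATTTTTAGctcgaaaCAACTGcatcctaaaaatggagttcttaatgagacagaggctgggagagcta
Pvalb: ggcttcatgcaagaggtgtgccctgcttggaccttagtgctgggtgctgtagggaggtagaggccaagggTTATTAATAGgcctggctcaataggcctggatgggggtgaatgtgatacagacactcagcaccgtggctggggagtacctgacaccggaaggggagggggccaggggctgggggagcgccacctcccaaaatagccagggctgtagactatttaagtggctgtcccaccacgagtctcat
Casq1 and Casq2 each hold 2 E-boxes in this window, and the printed Pvalb window holds none. Casq2 and the printed Pvalb window each hold 1 MEF2 match, 60 to 69 and 171 to 180 bases before the start. Another Pvalb window, before a start site at 78204237, holds 1 E-box and 0 MEF2 matches. Over all 32851 windows of this length, 66.2% hold an E-box and 2.92% a MEF2 match. Of the 9 windows found for 8 members, 7 hold an E-box and 2 a MEF2 match, those printed. The matches are a description of these letters.

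How libraries are scaled bears on the members with small differences. The deposited values are relative to a per-million total that was not the sum of reads recovered from that library. The ratio of the latter to the former ran from 0.839 to 1.52. Scaling factors between libraries, computed from the recovered reads as trimmed means of log ratios, ran the other way. They were 1.33 in the library with the lowest ratio and 0.756 in that with the highest. Whether the deposited values carry such factors is not given, and own totals hold none. Scaling by the sum of recovered reads (own totals) moved the median log2 difference of all genes in the wild-type 6-OHDA comparison from -0.04 to 0.29. The calls went from 2414 higher and 2044 lower to 5112 higher and 467 lower. On that scale Atp2a2 (1.82), Sln (2.89) and Casq2 (1.43) were above that median and Pvalb (-0.77) was below it, and all 4 passed. Casq1 (0.022) and Cacna1s (0.054) changed sign, and Atp2a1 (-0.11) and Ryr1 (-0.01) came close to 0, all 4 below the median of all genes. Slc8a1 (0.74) passed there (limma adjusted p = 0.00929).

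**Figure D3:**
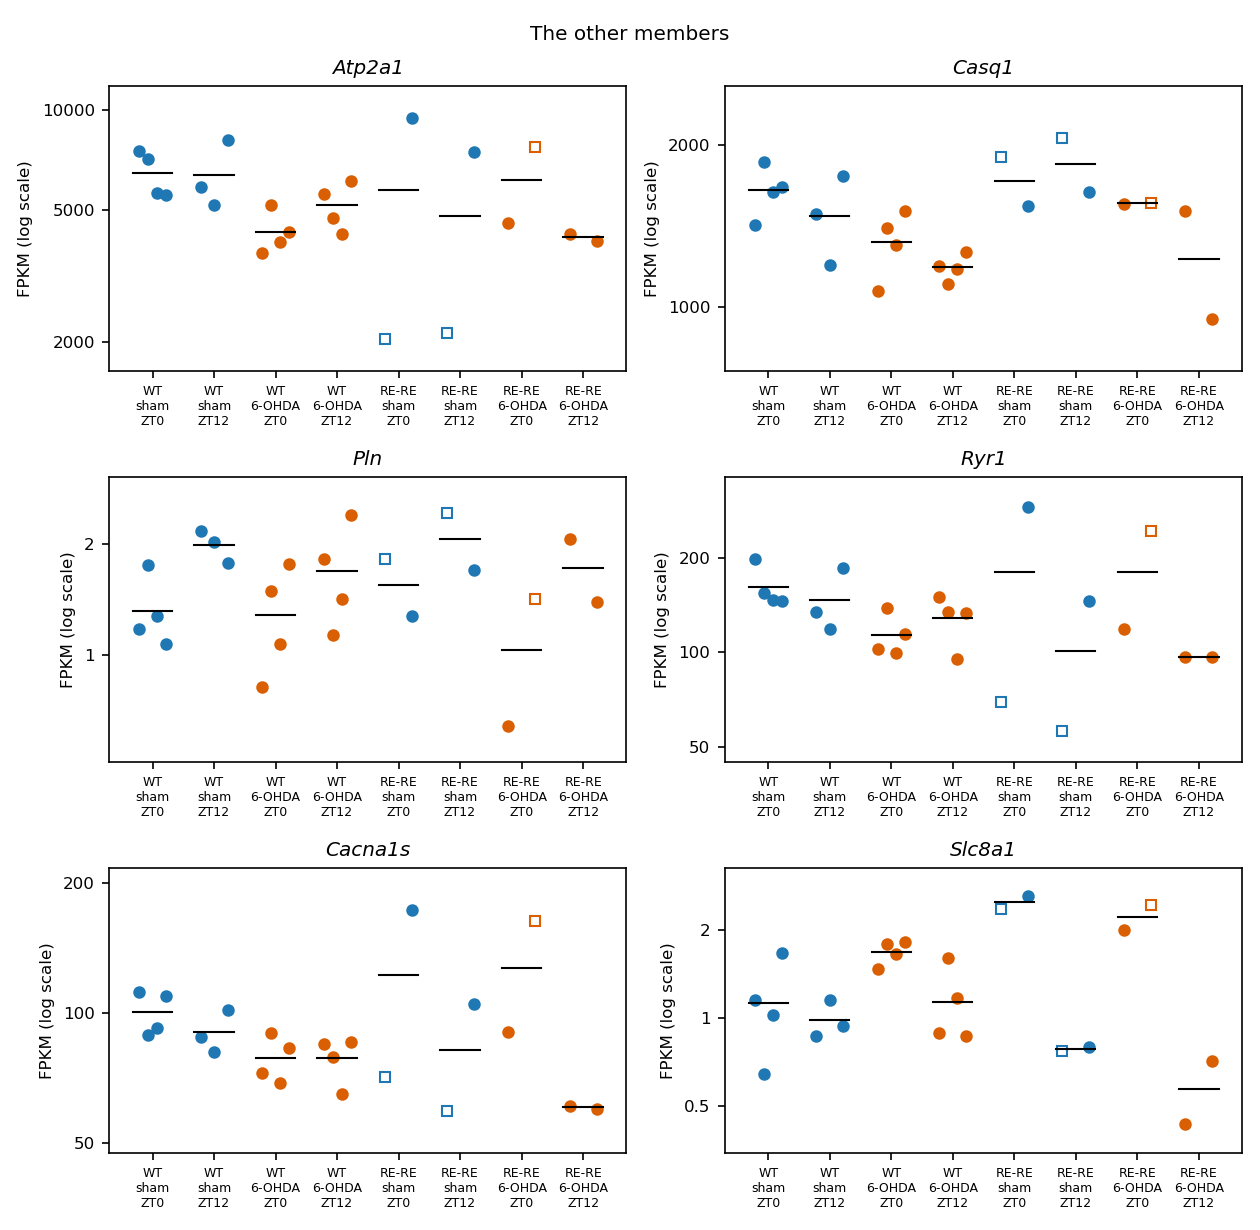
FPKM (log scale) of the 6 other members in each of 23 libraries, by genotype, treatment and time (blue for sham, orange for 6-OHDA, bars at group means, open squares for the 3 RE-RE libraries that stood apart). RE-RE sham libraries 1 and 3 lie lowest for Atp2a1 and Ryr1, and Slc8a1 is lower at ZT12 than at ZT0 in all RE-RE libraries.

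In RE-RE muscle, 6-OHDA was again compared with sham over both times. Atp2a2 rose 4.96-fold and Sln 12.8-fold, and the other 8 members did not pass. Of all tested genes 26.9% passed, so 2 of 10 members is near the background here too, and 11.9% of all genes rose. Atp2a2 had the third smallest p of 12820 genes. With array weights, with age as a covariate, or in a fit on the compared groups alone, 0 members passed. In these fits 0, 3 and 2 of 12820 genes passed, so 0 members is the background there. The log2 differences of Atp2a2 and Sln were 2.31 and 3.68 with array weights and on the compared groups alone, and 2.05 and 2.36 with age. Ages in RE-RE sham and 6-OHDA muscle do not overlap, so age and treatment cannot be told apart there.

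Atp2a2 was at 4.66 and 7.22 FPKM in RE-RE sham muscle at ZT0 and at 6.58 and 6.37 at ZT12. With 6-OHDA it was at 39.0 and 14.0 FPKM at ZT0 and at 33.6 and 46.8 at ZT12. All 4 treated libraries lay above all 4 sham libraries, with library 2 closest to them. The share of all tested genes separated in this way was not counted, so this too is a description. The log2 difference was 2.31 ± 0.30 (limma adjusted p = 0.00138) and ranged from 1.94 to 2.68 on leaving out each library, past the test each time.

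Sln was at 5.27 and 3.97 FPKM in RE-RE sham muscle at ZT0 and at 15.8 and 6.93 at ZT12. With 6-OHDA it was at 167 and 8.54 FPKM at ZT0 and at 142 and 303 at ZT12. Library 2 lay within the sham range and the other 3 treated libraries above it. The log2 difference was 3.68 ± 0.70 (limma adjusted p = 0.00912) and ranged from 2.61 to 4.75 on leaving out each library. Without 6-OHDA library 1 or 4 it no longer passed, in fits where few genes of any kind passed.

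Casq2 was spread widely in RE-RE sham muscle, at 45.8, 29.3, 60.6 and 16.0 FPKM in libraries 1 to 4, and in treated muscle at 77.0, 19.3, 53.2 and 76.7. The groups overlapped, with a log2 difference of 0.55 ± 0.39 (limma adjusted p = 0.266). Pvalb was at 10092, 6006, 11832 and 7181 FPKM in the sham libraries and at 4144, 6609, 7161 and 2497 in the treated ones. Its log2 difference of -0.85 ± 0.33 did not pass (limma adjusted p = 0.0636). With limma-voom on recovered reads Pvalb passed (limma adjusted p = 0.0475), as did 24.4% of all tested genes. On leaving out each library its log2 difference ranged from -1.23 to -0.47.

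Atp2a1 was at 2042 and 2127 FPKM in RE-RE sham libraries 1 and 3, and at 9474 and 7479 in libraries 2 and 4. Ryr1 was at 69.6 and 55.9 against 291 and 145 FPKM in the same libraries, and Cacna1s at 70.8 and 59.2 against 173 and 105. For all 3 genes libraries 1 and 3 lay below the wild-type sham range, library 2 above it and library 4 within it. These 3 genes were thus low together in the sham libraries with the highest mitochondrial share, and of the 4 RE-RE sham libraries these 2 had the most Pvalb and Casq2. In treated muscle library 2 was highest for all 3, at 7746 FPKM for Atp2a1, 244 for Ryr1 and 163 for Cacna1s. The part of the mitochondrial share in these values was not tested.

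Without the 3 libraries that stood apart, 6 of 10 members passed in RE-RE muscle, against 28.1% of all tested genes in that fit. Sln (log2 5.14), Atp2a2 (2.53) and Casq2 (1.70) were higher with 6-OHDA. Cacna1s (-0.87), Ryr1 (-0.94) and Atp2a1 (-0.95) were lower, where Ryr1 and Atp2a1 had log2 differences of 0.18 and 0.24 with all libraries. Pvalb did not pass in this setting (-0.65, limma adjusted p = 0.259). All 3 libraries were singled out by values that include the outcome: the sham libraries left out are those lowest for Atp2a1, Ryr1 and Cacna1s, so the lower values of these 3 genes follow in part from that choice. The values are a description of the remaining 5 RE-RE libraries.

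The effect of 6-OHDA was then compared between genotypes. No member passed the test of this difference, which 0.0702% of all genes (9 of 12820) passed. Atp2a2 had a difference of 0.82 ± 0.37 between its log2 effects (RE-RE minus wild-type, limma adjusted p = 0.315). Sln had 1.12 ± 0.86 (95% interval -0.69 to 2.93, limma adjusted p = 0.537), and Slc8a1 -0.74 ± 0.31 (limma adjusted p = 0.286). At an unadjusted p under 0.05, 1895 genes differed. Without the 3 libraries that stood apart, 0 members passed as well.

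**Figure D4:**
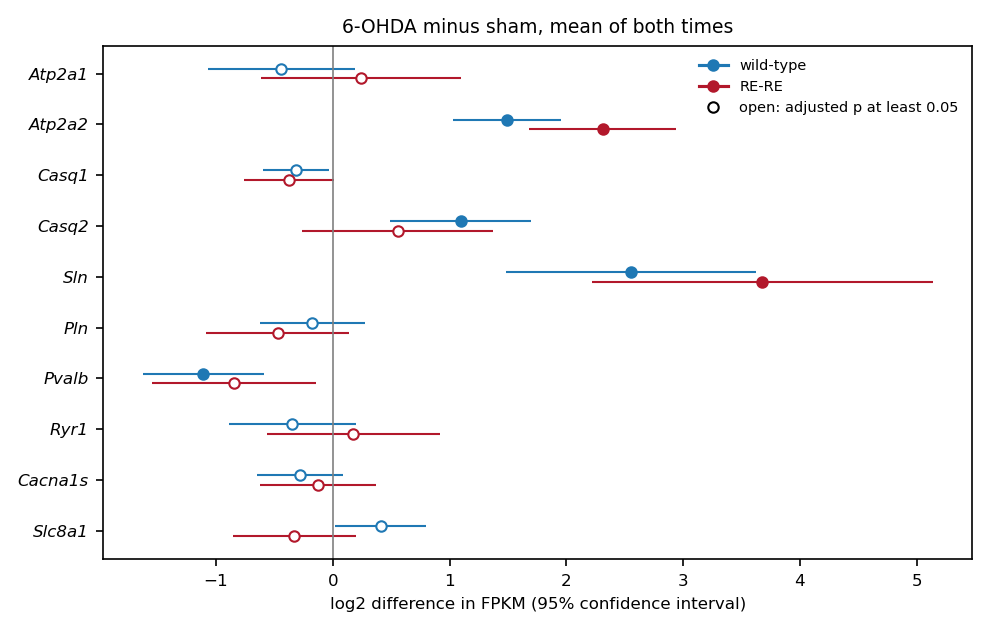
Log2 difference in FPKM between 6-OHDA and sham muscle for each of the 10 members, as points with 95% confidence intervals, in wild-type (blue) and RE-RE mice (red), filled where the limma adjusted p is under 0.05. Atp2a2 and Sln are filled in both genotypes, Casq2 and Pvalb in wild-type muscle alone, where the difference between genotypes did not pass.

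Partner genes of excitation-contraction coupling and of the SR were listed as 31 genes, 29 of them tested. In wild-type muscle 2 rose and 8 fell with 6-OHDA, against 18.8% and 15.9% of all genes, with a median log2 difference of -0.28 against -0.04 for all genes. The 5 with the smallest p all fell. Mrln, which encodes the SERCA inhibitor myoregulin, fell by 1.31 on the log2 scale, from 13.8 ± 5.02 FPKM (SD, n = 7) to 5.15 ± 1.44 (SD, n = 8). Trdn, for triadin, which anchors calsequestrin at the release channel, fell by 0.87 on the log2 scale, and Jph1, for a junctophilin that ties the SR to the transverse tubule, by 0.57. Jsrp1, a protein of the same junction, fell by 0.58 and the calmodulin gene Calm3 by 0.52. The 2 pump regulators Mrln and Sln therefore moved in opposite directions in wild-type muscle.

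In RE-RE muscle 0 of the 29 partner genes rose and 9 fell, against 11.9% and 15.0% of all genes, with a median log2 difference of -0.26 against -0.02 for all genes. Those with the smallest p included Mrln (-1.22), Cacna2d1 (-0.85), which encodes an auxiliary subunit of the voltage sensor, the surface calcium pump Atp2b1 (-0.51) and Calm3 (-0.57). Mrln went from 11.6 ± 3.28 FPKM (SD, n = 4) to 4.99 ± 1.42 (SD, n = 4).

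Calcium-dependent signalling and mitochondrial calcium were listed as 18 genes, all tested. In wild-type muscle 4 rose and 6 fell, against 18.8% and 15.9% of all genes, with a median log2 difference of -0.06. The calcineurin subunits Ppp3ca (-0.60) and Ppp3cb (-0.79), the calcium-calmodulin kinase Camk2a (-0.77) and the protease Capn3 (-0.51) fell, and Mcub, which encodes an inhibitory subunit of the mitochondrial calcium uniporter, rose (1.75). In RE-RE muscle 3 rose and 4 fell, against 11.9% and 15.0% of all genes. There Slc8b1 (0.78), the mitochondrial sodium-calcium exchanger, and Camk2b (0.67) rose, and Nfatc3 (-0.58), Ppp3cb (-0.74) and the calcineurin subunit Ppp3r1 (-0.43) fell.

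Fibre-type markers moved beside the members. Of 8 slow-fibre genes 7 rose with 6-OHDA in each genotype, against 18.8% of all genes in wild-type and 11.9% in RE-RE muscle. Their medians were 1.63 in wild-type and 3.04 in RE-RE muscle (log2). Of the 8 genes 0 passed the test of a difference between genotypes in this effect, which 0.0702% of all genes passed. The slow-fibre sum in RE-RE treated muscle was 236 and 198 FPKM at ZT0 and 593 and 649 at ZT12. Myh7, the slow myosin heavy chain, went from 2.59 ± 2.48 to 11.0 ± 3.86 FPKM in wild-type and from 0.610 ± 0.535 to 33.8 ± 25.7 in RE-RE muscle (SD, n = 7, 8, 4 and 4). Tnni1 rose by 2.23 and 3.95, Tpm3 by 0.87 and 1.63 and Tnnt1 by 1.87 and 3.39 on the log2 scale. Of 8 fast-fibre genes, 2 rose and 4 fell in wild-type muscle, against 18.8% and 15.9% of all genes. Myh2 (1.12) and Myh1 (0.61) rose, and Actn3 (-1.03), Tnni2 (-0.82), Tnnt3 (-0.76) and Myh4 (-0.96), the myosin of the fastest fibres, fell. In RE-RE muscle Myh2 (1.43) alone of these passed, against 26.9% of all genes.

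Genes of developing or regenerating fibres also rose, 7 of 8 in each genotype, against 18.8% of all genes in wild-type and 11.9% in RE-RE muscle. Their medians were 2.09 and 3.77 (log2), and 0 of 8 passed the test of a difference between genotypes in this effect. Their summed level was 25.1 to 42.3 FPKM in wild-type sham and 43.0 to 169 in treated muscle, and 14.7 to 32.3 and 23.02 to 138 in RE-RE muscle. Myh3, the embryonic myosin, rose by 3.09 and 4.42 on the log2 scale. The part of slow or regenerating fibres in the rise of Atp2a2, Sln and Casq2 was not tested.

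Markers of other cells rose in wild-type treated muscle: 5 of 5 macrophage genes (summed 16.6 to 41.2 FPKM in sham and 97.8 to 386 in treated muscle), 4 of 4 fibroblast genes (100 to 253 and 342 to 1092 FPKM), 2 of 3 adipocyte genes, 1 of 4 of endothelium and 1 of 4 of smooth muscle. Of all genes 18.8% rose with 6-OHDA in wild-type muscle, so 1 of 4 is near the background for endothelium and for smooth muscle. In RE-RE muscle, where 11.9% of all genes rose, 2 of 4 endothelial genes passed and 0 of the macrophage, fibroblast, adipocyte and smooth muscle genes. The macrophage sum was 19.6 to 60.5 FPKM in RE-RE sham and 205, 12.9, 50.0 and 217 in treated libraries 1 to 4. The part of these cells in the members' values was not tested.

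The genotypes were compared in sham muscle, where RE-RE mice were younger (10 to 11 weeks) than wild-type mice (12 to 18 weeks). Sln was 4.26-fold lower in RE-RE muscle and the other 9 members did not pass, against 9.91% of all genes in either direction and 5.17% lower. Its mean was 7.98 ± 5.32 FPKM (SD, n = 4) in RE-RE and 33.6 ± 14.9 (SD, n = 7) in wild-type sham muscle, and the ranges overlapped through wild-type library 1. The log2 difference was -2.09 ± 0.62 (limma adjusted p = 0.0424). Without the 3 libraries that stood apart it was -2.49 (limma adjusted p = 0.0371). With age as a covariate it was -0.76 (limma adjusted p = 0.531), and it no longer passed in 9 of the 11 fits that left out a library, those without any wild-type library other than library 1, and without RE-RE library 1, 3 or 4. Atp2a2 was at 6.21 ± 1.09 FPKM in RE-RE and 10.6 ± 3.11 in wild-type sham muscle. The log2 difference of Atp2a2 was -0.73 ± 0.27 and did not pass (limma adjusted p = 0.0774).

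Among partner genes, Cacna2d1 (0.75) and Calm3 (0.47) were among those higher in RE-RE sham muscle, and no gene of the signalling list passed. Of the regenerating-fibre genes, 4 of 8 were lower (Mymk, Chrng, Mymx and Myh8), against 5.17% of all genes. They stood beside the lower Sln, and their part in it was not tested. In 6-OHDA muscle 0 of 10 members differed between genotypes by limma, against 0.226% of all genes (29 of 12820, and 1161 at an unadjusted p under 0.05). The largest member difference there was that of Sln, -0.97 ± 0.60 (95% interval -2.23 to 0.30).

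Time of day was compared as ZT12 minus ZT0 within each genotype and treatment. No member passed in wild-type sham muscle (0.647% of all genes passed), wild-type 6-OHDA muscle (0.671%) or RE-RE sham muscle (0.0546%). At an unadjusted p under 0.05, 871, 937 and 659 genes differed. In RE-RE 6-OHDA muscle 1 member passed, Slc8a1, against 0.109% of all genes (14 of 12820) and 0.101% that were lower at ZT12.

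Slc8a1 was at 2.37 and 2.62 FPKM in RE-RE sham muscle at ZT0 and at 0.774 and 0.800 at ZT12. With 6-OHDA it was at 2.01 and 2.45 FPKM at ZT0 and at 0.433 and 0.716 at ZT12. In both treatments each ZT12 library lay below each ZT0 library. With 2 libraries at each time such an order is common, and the share of genes separated in this way was not counted. The log2 difference was -1.97 ± 0.36 with 6-OHDA (limma adjusted p = 0.0368) and -1.65 ± 0.36 in sham muscle (limma adjusted p = 0.134). The first no longer passed without library 2, 3 or 4, with values from -2.33 to -1.62 on leaving out each library, nor without the 3 libraries that stood apart (-1.83, limma adjusted p = 0.212).

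In wild-type muscle Slc8a1 was at 1.13 ± 0.426 FPKM at ZT0 (SD, n = 4) and 0.986 ± 0.147 at ZT12 (SD, n = 3) in sham, and at 1.69 ± 0.157 and 1.14 ± 0.343 (SD, n = 4 each) with 6-OHDA. The log2 differences were -0.12 ± 0.27 and -0.61 ± 0.25, neither past the test (limma adjusted p = 1 and 0.547). The time difference of sham muscle was larger in RE-RE than in wild-type mice by -1.53 ± 0.45, which did not pass over all genes (limma adjusted p = 1, 0.0156% of genes passed). The gene lies near the filter's minimum in all groups, and 304 of its 18807 exon bases overlap other genes.

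Pln had higher means at ZT12 than at ZT0 in each of the 4 genotype and treatment pairs, with log2 differences of 0.61 and 0.40 in wild-type sham and 6-OHDA muscle and 0.42 and 0.82 in RE-RE muscle. In wild-type sham muscle the 3 ZT12 libraries (2.17, 2.03 and 1.77 FPKM) lay above the 4 ZT0 libraries (1.18, 1.76, 1.27 and 1.07), by a small margin at the closest pair. The share of genes separated in this way was not counted. None of the 4 log2 differences of Pln passed, with limma adjusted p from 0.401 to 1. Sln had the widest intervals by time, -1.06 ± 0.70 in wild-type and 2.46 ± 0.98 in RE-RE 6-OHDA muscle, where library 2 is 1 of the 2 ZT0 libraries. No member passed the test for a 6-OHDA effect that differed between times, in wild-type (0.00780% of genes passed) or RE-RE mice (0.0156%).

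**Figure D5:**
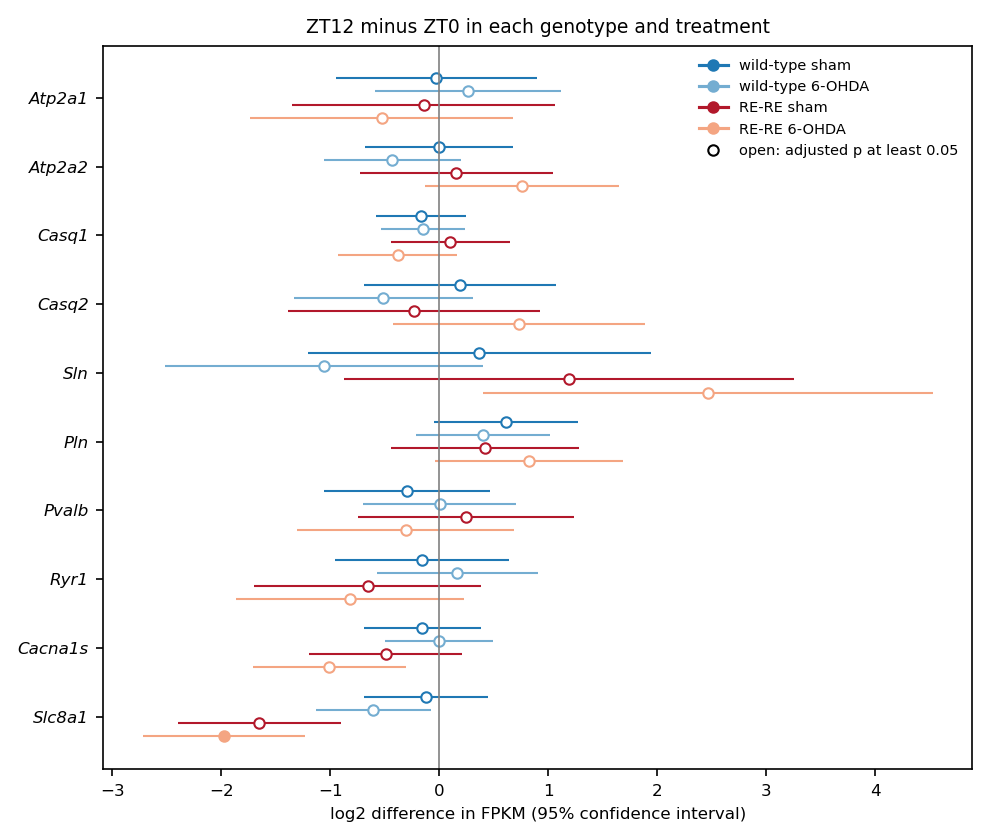
Log2 difference in FPKM between ZT12 and ZT0 for each of the 10 members, as points with 95% confidence intervals, in wild-type sham, wild-type 6-OHDA, RE-RE sham and RE-RE 6-OHDA muscle, filled where the limma adjusted p is under 0.05. Slc8a1 in RE-RE 6-OHDA muscle is the only filled point, and its RE-RE sham interval also lies below 0.

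Members varied together over the 23 libraries, which is given as a description of libraries that share treatment and composition. Pearson's r of log2 FPKM was 0.94 between Atp2a1 and Ryr1, 0.91 between Ryr1 and Cacna1s and 0.90 between Atp2a2 and Sln. After subtracting group means these were 0.97, 0.97 and 0.67. The spread within groups behind the first 2 was mostly that of RE-RE muscle, where the SD of log2 FPKM within groups was 1.05 for Atp2a1, 0.95 for Ryr1 and 0.62 for Cacna1s, against 0.25, 0.26 and 0.17 in wild-type muscle. The libraries that stood apart are among those of RE-RE muscle. Casq1 and Pvalb had r = 0.86, and 0.78 after subtracting group means.

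Among the 8245 tested genes whose log2 FPKM averaged 1 or more, those most like Atp2a2 over the 23 libraries were Nt5c2 (r = 0.948), Myh3 (0.947) and Cyb5r3 (0.945). Those most like Sln were Krt18 (0.966), Rrad (0.955) and Maged2 (0.951), and those most like Casq2 were Eid1 (0.916), Tmed9 (0.903) and Camk2d (0.896). Pvalb was most like the thin-filament genes Tpm1 (0.980) and Tnni2 (0.971) and Tmod4 (0.965), which caps thin filaments. Ryr1 was most like Scn4a (0.978), the muscle sodium channel that carries the impulse, then Sympk (0.962) and Sptb (0.960). The closest genes were Hdac5 (0.965) for Atp2a1, Eif4g1 (0.958) for Cacna1s, Tpm1 (0.859) for Casq1, Gtf3c4 (0.887) for Slc8a1 and Mir1b (0.772) for Pln.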

How the data were processed

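RNA of 23 libraries was analysed from 1 table. The submitters' processing notes name GRCm38 as genome and, as tools, edgeR 3.30.0, featureCounts 1.6.2, HISAT2 2.1.0, Trim Galore 0.5.0 and FastQC 0.11.8. The deposited values are log2 FPKM with an offset of 0.01, for 14500 genes. The strand setting and any factor between libraries are not given in the sources used here.

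GENCODE M21 gave symbols, gene positions and exon lengths. The 12820 genes that reached an FPKM of 1 in 2 or more libraries were fitted on the deposited log2 scale. The fit used R 4.3.3 and limma 3.58.1, a mean for each group, a pooled spread and eBayes with a trend. The threshold was an adjusted p (Benjamini-Hochberg, over all tested genes) under 0.05. Fold changes are on the log2(FPKM + 0.01) scale, and means ± SD are of linear FPKM. Depth came from steps between low FPKM values, of which 86.6% to 94.8% up to 20 reads were whole within 0.1 read. Scripts were tested on simulated data. The other software was matplotlib 3.10.9, pandas 2.3.3, numpy 2.4.6 and python 3.11.15.

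The members, gene lists and tests were chosen with earlier results of these data known. Named genes are all members, up to 5 genes of each list with the smallest p among those that passed, and up to 3 genes most like each member. Myh1 was named after its values were seen. Alternatives were log2(FPKM + 1), no filter, quantile normalization, own totals, limma-voom, array weights, age, only the compared groups, the replicate block, leaving out 3 libraries that stood apart, and leaving out each library. The value of a listed gene that is withheld is left out of the text. Protein sequences were not used here.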

Additional observations from a re-analysis of the deposited data

Results flagged for a closer look

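Sln in wild-type sham library 1 at ZT0 stood at 6.67 FPKM, far from the other 3 libraries of its group (46.4, 34.2 and 42.8 FPKM). Its gap to the nearest library was 0.843 of the group's range, above the 95% critical value of Dixon's test for 4 samples. Of 30 groups of 4 libraries examined over the 10 members, 1 was picked out in this way, and chance picks about 1 in 20. The rise of Sln with 6-OHDA in wild-type muscle passed the test with and without this library.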

How the results depend on the processing

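Of the 12 counts of members past the test, those for 6-OHDA in wild-type muscle (4) and in RE-RE muscle (2), for genotype in sham muscle (1), and for time in wild-type 6-OHDA (0) and RE-RE 6-OHDA muscle (1) moved with some setting other than leaving out a library. A fit on the compared groups alone gave 8 members for 6-OHDA in wild-type muscle (51.8% of all genes). It gave 0 for 6-OHDA in RE-RE muscle (0.0156%), for genotype in sham muscle (0.608%) and for time in RE-RE 6-OHDA muscle (0.00%). Array weights gave 0 for the same 3 comparisons, where they called 0.00% of all genes. They gave 2 for time in wild-type 6-OHDA muscle (Slc8a1 and Sln), where they called 12.5% of all genes. Age as a covariate gave 0 for 6-OHDA in RE-RE muscle (0.0234% of all genes) and for genotype in sham muscle (0.523%). Quantile normalization and limma-voom gave 0 for genotype in sham muscle (5.11% and 7.24% of all genes). Own totals gave 0 for time in RE-RE 6-OHDA muscle (0.0234%). Without the 3 libraries that stood apart, 6 members passed for 6-OHDA in RE-RE muscle (28.1% of all genes) and 0 for its time comparison. The cause was not tested.

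Leaving out each library gave 4 to 5 members for 6-OHDA in wild-type muscle, 1 to 5 in RE-RE muscle, 0 to 4 for genotype in sham muscle, 0 to 1 for genotype in 6-OHDA muscle and 0 to 5 for time in RE-RE 6-OHDA muscle. The 4 for genotype came without RE-RE sham library 2, where 33.7% of all genes passed. The 5 for time came without RE-RE 6-OHDA library 1, where 14.1% of all genes passed and which leaves 1 library at ZT0 that is assumed to vary like the others. Over these fits Atp2a2, Sln, Casq2 and Pvalb kept their calls for 6-OHDA in wild-type muscle. Slc8a1 passed there without wild-type sham library 4 (limma adjusted p = 0.0318).

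Signs changed for members that did not pass. In wild-type muscle with 6-OHDA these were Atp2a1 (0.34) and Casq1 (0.32) after quantile normalization and Casq1 (0.022) and Cacna1s (0.054) with own totals. In RE-RE muscle they were Cacna1s after quantile normalization (0.14) and with own totals (0.26). Without the 3 libraries Atp2a1 (-0.95) and Ryr1 (-0.94) turned and passed, where the sham libraries left out are those lowest for both. Without RE-RE sham library 1 or 3, Atp2a1 was -0.31 and -0.21 and Ryr1 -0.34 and -0.17. Ryr1 was -0.08 without 6-OHDA library 2. Cacna1s was 0.20 and 0.08 without sham library 2 or 4 and 0.09 without 6-OHDA library 1. The ranges on leaving out each RE-RE library were -0.31 to 0.80 for Atp2a1, -0.34 to 0.69 for Ryr1 and -0.45 to 0.20 for Cacna1s.

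Over all genes, 6-OHDA in wild-type muscle gave 4458 calls, 7611 with array weights and 6640 on the compared groups alone. In RE-RE muscle it gave 3446, against 0 with array weights by limma (2314 at an unadjusted p under 0.05), 3 with age and 2 on the compared groups alone. Own totals split the RE-RE calls into 3984 higher and 476 lower, from 1522 and 1924. Replicate numbers do not pair the samples: ages differ within most numbers, and deviations of same-numbered libraries had r from -0.12 to 0.07 in wild-type muscle (0.101 and 0.165 in RE-RE muscle, where each value stands for both pairs of a time). With the replicate number as a block, 4 members passed for 6-OHDA in wild-type muscle (4232 genes) and 2 in RE-RE muscle. Pln and Slc8a1 had the lowest mean FPKM of the members in wild-type sham muscle, near 1. FPKM is per length, and Slc8a1 has 18807 exon bases against 2759 for Pln, so depth limits Pln more.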
